A study of Mus musculus with 2 samples.

Results

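Interleukin-1 and inflammasome genes were examined in RNA from isolated glomeruli, the filtering units of the kidney. They comprised the cytokine genes Il1a, Il1b and Il18, the antagonist gene Il1rn, the receptor genes Il1r1 and Il1rap, and the inflammasome genes Nlrp3, Pycard and Casp1. Every probe set whose platform symbol was exactly one of these 9 names was taken, which gave 18 of the 45101 probe sets in the table. A probe set is a group of short oligonucleotides, most often assigned to 1 gene, on the Affymetrix Mouse Genome 430 2.0 array. The animals were male KK/Ta mice aged 20 weeks, an inbred strain that becomes obese and diabetic, so both groups share that background. The HFD group received a high-fat diet and the Chow group a normal chow diet. Each diet has 1 array. The design text speaks of 3 mice, and neither the number behind each array nor pooling of their RNA is stated, so no difference below has a replicate check, and none carries a test.

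The interleukin-1 system turns danger signals into inflammation. A sensor such as NLRP3 gathers the adaptor ASC, the product of Pycard, and ASC gathers caspase-1, which cuts the inactive precursors of interleukin-1 beta and interleukin-18 into secreted cytokines. Interleukin-1 alpha and beta bind the receptor IL1R1 together with its accessory chain IL1RAP, and the antagonist encoded by Il1rn occupies the same receptor without a signal. In the kidney, macrophages are a known source of interleukin-1 beta, and tubule epithelium is a known source of interleukin-18.

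Il1b was the member that stood apart: its transcript was 2.68-fold higher in HFD glomeruli. For the receptor, interleukin-18, caspase-1 and ASC transcripts, the probe sets above the floor on both arrays (defined below) differed by -0.22 to 0.19 log2 units. Transcripts of Il1a, Il1rn and Nlrp3 were too dim to compare. Signals under an array's median (42.3 for HFD and 44.9 for Chow), called the floor, were raised to that median. Of the 18 member probe sets, 7 were above the floor on both arrays, 1 on the HFD array only and 10 on neither. The 8 above the floor belonged to 6 of the 9 genes. A difference of 2-fold or more toward HFD was found for 1 of these 8, and toward Chow for 0. Of the 23421 probe sets that passed the floor on either array, 0.615% differed so toward HFD and 0.295% toward Chow (144 and 69, or 106 and 96 without centring of the arrays). The median difference was 0.046 log2 units over the 8 member probe sets and 0.038 over all of those probe sets.

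**Figure D1:**
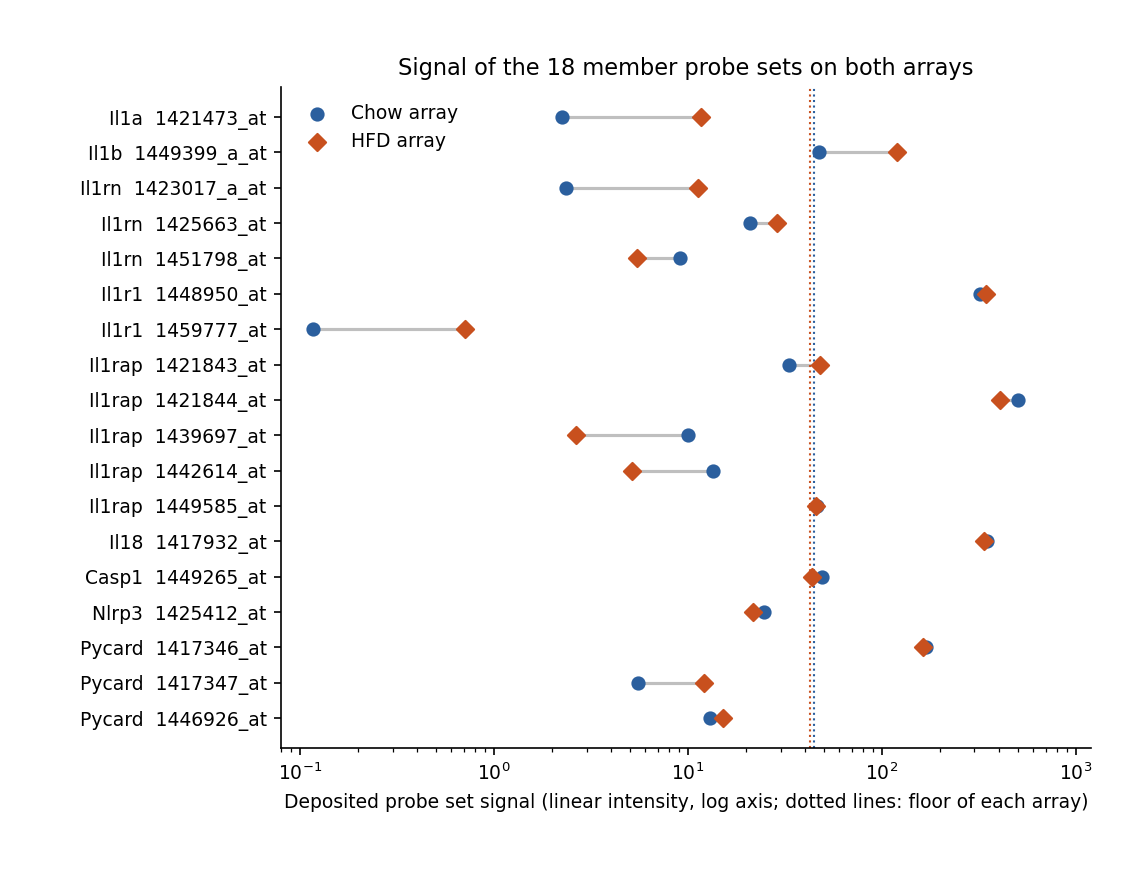
Deposited signal (linear intensity on a log axis) of each of the 18 member probe sets on the Chow array (circles) and the HFD array (diamonds), with the floor of each array as a dotted line. Il1b lies just above the floor in Chow (47.3) and well to the right of the HFD floor in HFD (120). The points of Il18, Il1r1 1448950_at and Pycard 1417346_at nearly coincide.

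Upstream sequence is shown for the 3 cytokine genes, because Il1b alone differed by 2-fold, Il1a is its paralogue on the same chromosome, and Il18 encodes the other caspase-1 substrate. Each line gives the 250 bases before the annotated start, 5′ to 3′, from RefSeq (GRCm38.p6), with matches to the motifs searched in capitals. Il1b is at chr2:129371140-129371389 on the minus strand, Il1a at chr2:129309973-129310222 on the minus strand, and Il18 at chr9:50554450-50554699 on the plus strand.
Il1b: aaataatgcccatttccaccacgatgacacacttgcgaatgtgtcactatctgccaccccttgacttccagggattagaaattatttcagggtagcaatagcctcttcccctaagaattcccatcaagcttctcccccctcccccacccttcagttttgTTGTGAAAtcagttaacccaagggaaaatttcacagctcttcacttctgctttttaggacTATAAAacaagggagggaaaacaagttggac
Il1a: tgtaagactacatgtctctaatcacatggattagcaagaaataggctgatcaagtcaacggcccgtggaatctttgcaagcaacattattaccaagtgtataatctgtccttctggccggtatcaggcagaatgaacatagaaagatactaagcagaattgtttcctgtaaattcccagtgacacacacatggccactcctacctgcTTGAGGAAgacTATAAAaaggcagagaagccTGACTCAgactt
Il18: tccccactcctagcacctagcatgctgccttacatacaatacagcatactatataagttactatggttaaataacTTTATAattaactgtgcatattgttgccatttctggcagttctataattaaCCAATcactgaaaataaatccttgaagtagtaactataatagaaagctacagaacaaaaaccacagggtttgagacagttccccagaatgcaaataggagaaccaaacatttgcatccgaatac
The motifs were read on both strands. The core promoter box next to many starts was searched as TATAAA. The NF-kappaB motif was searched as GGGNNNNNCC. The AP-1 motif was searched as TGACTCA. The C/EBP motif was searched as TTNNGNAA, and the last one as CCAAT. Matches of different motifs did not overlap in these 3 windows. Il1b held TATAAA from 31 to 26 bases before the start and a C/EBP match from 91 to 84 bases before it. Il1a held TATAAA from 32 to 27 bases before its start, a C/EBP match, and an AP-1 match from 12 to 6 bases before the start. Il18 held TATAAA on the opposite strand, from 175 to 170 bases before the start, and a CCAAT. The letters TATAAA occur in 12.4% of the 32851 windows of that table, the C/EBP letters in 36.8%, AP-1 in 4.46%, CCAAT in 33.8% and the NF-kappaB letters in 45.8%. All 9 genes had an entry, with 13 windows between them (some overlap, as for Il1rn). Among the 13, 3 held TATAAA, those of Il1a, Il1b and Il18. The NF-kappaB letters were in 6, from Il1rn, Il1r1, Il1rap, Casp1 and Nlrp3, and in none of the 3 printed. The C/EBP letters were in 9 of the 13 (6 genes), CCAAT in 4 and AP-1 in 2. A match is a string of letters and not a shown binding site.

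Among the cytokines, Il1b was read by 1 probe set, 1449399_a_at. It read 120 in HFD and 47.3 in Chow (deposited signal), a difference of 1.42 log2 units after each array was centred on its median (2.68-fold). Its percentile was 64.0 in HFD and 50.8 in Chow among all probe sets, so the Chow value stood just above the floor. It ranked 34 of 23421 from the highest difference. For the 1000 probe sets nearest to it in mean signal, the central 90% of differences ran from -0.62 to 0.74 log2 units, with a scaled median absolute deviation of 0.38. The Il1b difference lay outside that range, which describes the scatter of these arrays and holds real differences too.

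The 3 genes with the most similar pair of signals were Adgre1, Vwf and Enpp6. Likeness was the distance over the 2 centred log2 signals, so it rests on 2 arrays and shows only like brightness and like difference. Adgre1, which encodes the macrophage surface marker F4/80, had a signal of 109 in HFD and 49.8 in Chow (distance 0.15 log2 units). Vwf, the endothelial von Willebrand factor gene, read 116 and 52.8 (distance 0.17), and Enpp6 read 113 and 53.8 (distance 0.20).

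Most macrophage and monocyte markers above the floor were higher in HFD, as Il1b was. So were most tubule markers (medians of 0.60 and 0.64 log2 units for the lists given below). With 1 array per diet, this shows like direction only. Of the 15 macrophage and monocyte genes measured, 8 were above the floor on both arrays. Of these 8, 7 were higher in HFD and 4 by at least 2-fold, with a median difference of 0.99 log2 units. A further 5 (C1qa, C1qb, C1qc, Cd68 and Cx3cr1) were above the floor in HFD only and so could count only as higher. With them, 12 of 13 were higher by any amount, beside 62.2% of all 11356 genes above the floor on at least 1 array. Without centring these were 12 of 13 and 46.1%. By at least 2-fold, 6 of the 13 were higher, beside 0.722% of all those genes. The median over the 13 was 0.79 log2 units, and the Il1b difference of 1.42 lay inside their range of -0.033 to 1.79. Cybb, a phagocyte oxidase subunit, had the largest difference (192 in HFD and 59.0 in Chow), followed by the leukocyte antigen gene Ptprc (467 and 149). The brightest gene of the list, Mrc1 (2294 and 2267), differed by 0.10 log2 units, and Ccr2 by -0.033. The signals of the 15 summed to 6107 in HFD and 4341 in Chow, with none at 0. Neutrophils also make interleukin-1 beta, and 7 of 9 neutrophil markers were under the floor on both arrays. The other two were Csf3r (52.5 in HFD and 9.09 in Chow) and S100a8 (36.3 and 64.6). The summed neutrophil signal was 191 in HFD and 198 in Chow, with none at 0. Of 9 lymphocyte markers, 7 were under the floor, Ighm differed by 0.54 log2 units and Cd8a by -0.18, and none was at 0 (summed signal 196 and 171). The part of these cells in the Il1b difference was not tested. In such bulk RNA, more cells of a type and more RNA per cell cannot be told apart.

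Il18 was alike in both groups. Its probe set 1417932_at read 336 in HFD and 348 in Chow. The difference of 0.032 log2 units turned to -0.052 without centring, -0.0069 with quantile normalization and -0.014 with a loess fit, all far inside the like-signal range of -0.37 to 0.46. Most tubule markers were higher on the same HFD array. Of all genes above the floor, 62.2% were higher by any amount (46.1% without centring). Of 12 proximal tubule markers 11 were higher (10 without centring), with a median of 0.60 log2 units, led by the transporter gene Slc22a6 (308 and 141) and Cyp2e1 (2239 and 1208), and a summed signal of 17392 in HFD and 12759 in Chow. Of the 11 loop, distal and collecting duct markers measured, 9 were above the floor and all 9 were higher, with a median of 0.64 log2 units and a summed signal of 8947 and 6279. Slc12a3 (1263 and 755) and Calb1 (526 and 315) had the largest differences, and no tubule marker was at 0. How tubule RNA bore on the Il18 value was not tested.

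Il1a was under the floor on both arrays. Probe set 1421473_at read 11.7 in HFD and 2.25 in Chow. Taken without the floor, that is a difference of 2.46 log2 units, larger than that of Il1b. Probe sets of like signal scattered from -2.99 to 3.03, so the Il1a value lay inside the scatter of dim probe sets and gives no direction.

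The antagonist gene Il1rn was also under the floor in each of its 3 probe sets. Probe set 1425663_at, the brightest, read 28.7 in HFD and 20.8 in Chow. Probe set 1423017_a_at read 11.3 and 2.35, and 1451798_at read 5.45 and 9.08. Without the floor the differences were 0.55, 2.35 and -0.65 log2 units, so only 1451798_at was lower in HFD, and each lay inside its like-signal range. A balance between Il1b and its antagonist could therefore not be read from these arrays.

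**Figure D2:**
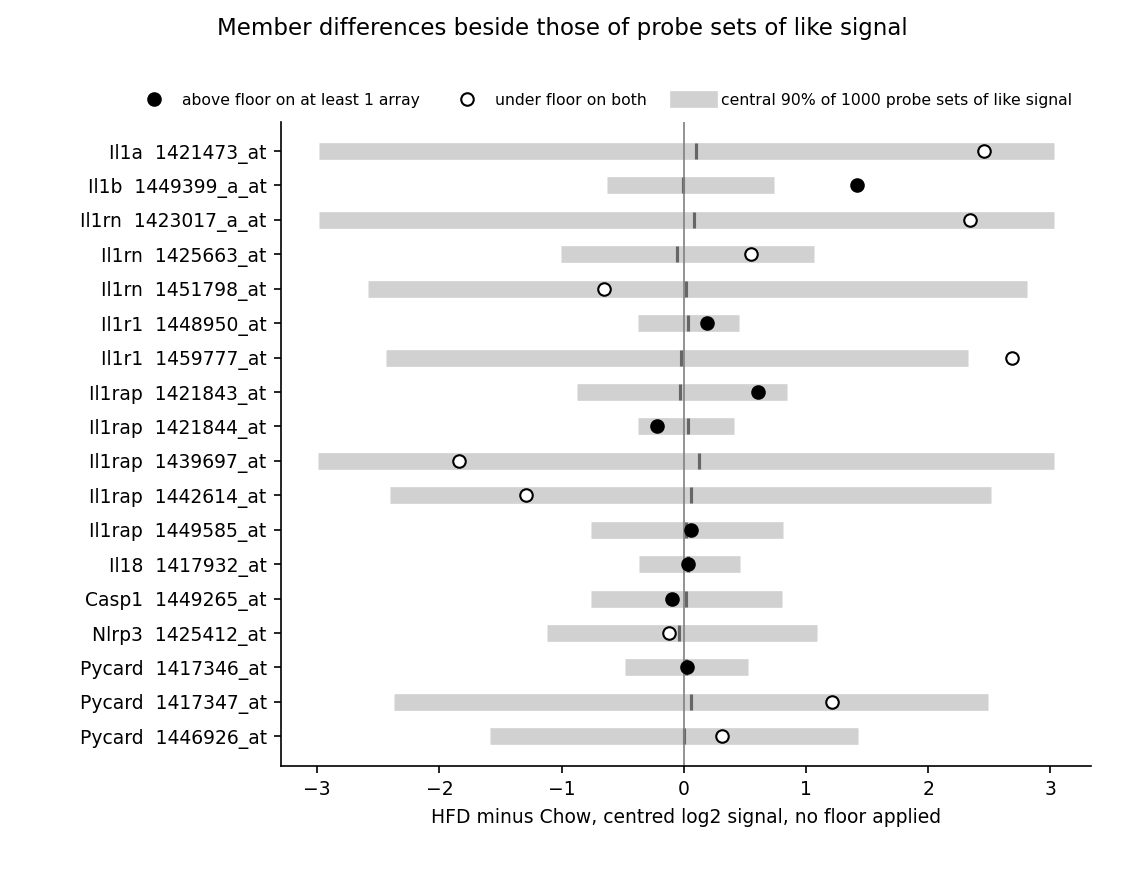
Difference between the arrays (HFD minus Chow, centred log2 signal, no floor) for each member probe set, filled where it passed the floor on either array and open where it passed on neither. Grey bars span the central 90% of differences of the 1000 probe sets nearest in mean signal, with a tick at their median. The Il1b point at 1.42 lies beyond its bar, which ends at 0.74, and the only other point outside its bar is the very dim Il1r1 1459777_at.

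The receptor transcripts were close between the diets. Il1r1, the signalling receptor chain, read 345 in HFD and 320 in Chow with probe set 1448950_at, a difference of 0.19 log2 units inside the like-signal range of -0.38 to 0.45. Its second probe set, 1459777_at, read 0.708 and 0.116, close to the bottom of either array. The 2.69 log2 units between those values lay outside the like-signal range of -2.43 to 2.33, but with the 25th percentile of each array added to the signals the difference was 0.12. The second probe set thus gives no usable level.

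Il1rap, the accessory chain shared by several receptors of the family, had 5 probe sets, which did not agree in direction. The brightest, 1421844_at, read 405 in HFD and 500 in Chow (-0.22 log2 units). Probe set 1449585_at read 45.5 and 46.3, a difference of 0.060 that turned to -0.024 without centring. Probe set 1421843_at was above the floor in HFD only, at 47.9 against 33.3. With the Chow value raised to the floor it was 1.13-fold higher (0.18 log2 units, 0.096 without centring, 0.61 without the floor). It passed the floor only through the array where it was higher. The remaining pair were under the floor and lower in HFD, with 2.63 and 9.97 for 1439697_at and 5.16 and 13.4 for 1442614_at. All 5 values lay inside their like-signal ranges, so the data show no Il1rap difference larger than the scatter of probe sets as bright.

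The inflammasome transcripts were measured at 3 different depths of signal. Pycard, the gene of the adaptor ASC, read 162 in HFD and 169 in Chow with its brightest probe set 1417346_at. That difference was 0.028 log2 units (-0.055 without centring and -0.0040 with a loess fit). Its other probe sets were under the floor, at 12.1 and 5.53 for 1417347_at and 15.2 and 13.0 for 1446926_at, or 1.21 and 0.31 log2 units without the floor. Both lay within the scatter of probe sets as dim. Casp1, the gene of caspase-1, stood just above the floor on both arrays. It read 43.4 in HFD and 49.1 in Chow, a difference of -0.092 log2 units against a like-signal range of -0.76 to 0.81. Nlrp3, the sensor, read 21.6 and 24.8 with its single probe set, under the floor on both arrays, and differed by -0.12 log2 units without it. At such signals the like-signal range reaches past 1.5-fold in both directions, so neither value gives a direction.

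Members just inside and just outside the floor show how close that boundary runs. On the HFD array Casp1 (43.4) and Il1rap 1449585_at (45.5) were the nearest above it, and Il1rn 1425663_at (28.7) was the nearest under it. On the Chow array Il1rap 1449585_at (46.3) was the nearest above the floor, and Il1rap 1421843_at (33.3) the nearest under it. With the floor at the 30th percentile (12.3 in HFD and 12.8 in Chow), 12 probe sets of 8 genes passed it. Il1a was then the only gene without one, and Il1b was still the only probe set past 2-fold.

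Genes around the members in the pathway were taken as 4 lists. Together, 80 genes were measured and 48 were above the floor. Of the 48, 0 reached 2-fold in either direction, beside 0.722% (higher) and 0.159% (lower) of all genes above the floor. At shares so small, 0 among 48 genes does not set these lists apart from all genes. By any amount 28 were higher and 20 lower, and 62.2% of all genes were higher. Without centring 21 of the 48 were higher, and 46.1% of all genes. Their median difference was 0.038 log2 units, and that of all genes was 0.064.

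Relatives of the interleukin-1 family were mostly dim, with 10 of 14 measured genes under the floor. Of the 4 above it, Il33, the gene of an epithelial and stromal alarmin, read 223 in HFD and 267 in Chow (-0.18 log2 units). The interleukin-36 receptor gene Il1rl2 read 211 and 248 (-0.15). The inhibitory receptor gene Sigirr read 520 and 522 (0.076), and Il18bp, which encodes the binding protein that neutralises interleukin-18, read 53.6 and 52.5 (0.11). The list's median was -0.035 log2 units.

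Inflammasome sensors and pyroptosis genes were better measured, with 13 of 18 above the floor, 8 of them higher and 5 lower (6 higher without centring), and a median of 0.040 (-0.043 without centring). The largest difference was that of Gsdme, the gene of a pore-forming gasdermin, at 87.3 in HFD and 64.9 in Chow (1.42-fold). Casp8, an apoptotic caspase that can also process interleukin-1 beta, read 2006 and 1514 (1.40-fold). The ATP release channel gene Panx1 was 1.36-fold higher at a low signal (65.7 and 51.3). Ninj1, needed for membrane rupture, was 1.22-fold higher (2151 and 1867), with all 4 of its probe sets higher. Casp4, the mouse caspase-11 gene, which senses bacterial lipopolysaccharide inside cells, was 1.21-fold higher (601 and 524).

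All 22 measured genes of receptor signalling were above the floor, 13 higher and 9 lower (11 higher without centring), with a median of 0.069 log2 units (-0.014 without centring). Irak2, a kinase downstream of the receptor, was the only one past 1.5-fold (137 in HFD and 94.1 in Chow, 1.54-fold, but 1.46-fold without centring), a size reached in either direction by 5.62% of all genes. The adaptor gene Myd88 read 649 and 567 (0.28), the NF-kappaB subunit gene Rela 2323 and 2082 (0.24), and the inhibitor gene Nfkbib 332 and 313 (0.17). Irak1 stood at 0.19 in its brightest probe set (550 and 511), while its other 3 probe sets ran from -0.15 to -0.0058.

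Genes known to be induced by interleukin-1 went both ways, and most were too dim to compare. Of 26 measured, 17 were under the floor, and of the other 9, 5 were higher (1 of them above the floor in HFD only) and 4 lower (3 higher without centring), with a median of 0.00024 log2 units. That median depended on the dim genes: it was 0.15 with the floor at the 30th percentile (19 genes), 0.27 with the 25th percentile added to all 26 and 0.47 with no floor. The prostaglandin synthase gene Ptgs2 came closest to 2-fold (110 in HFD and 62.2 in Chow, 1.88-fold). Sele, the gene of endothelial E-selectin, read 192 and 137 (1.48-fold), and Icam1, an adhesion molecule gene, 1119 and 918 (1.29-fold). Vcam1 read 2529 and 3242 in its brightest probe set (-0.27), and its other 2 probe sets stood at 0.56 and -0.021. The chemokine gene Cxcl1 read 494 and 621 (-0.25), with -0.14 and 0.12 in its other 2 probe sets. The highest values of this list thus belonged to Ptgs2, at a low signal, and to Sele and Icam1. Vcam1, also an adhesion gene and the brightest of the list, gave no single direction.

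**Figure D3:**
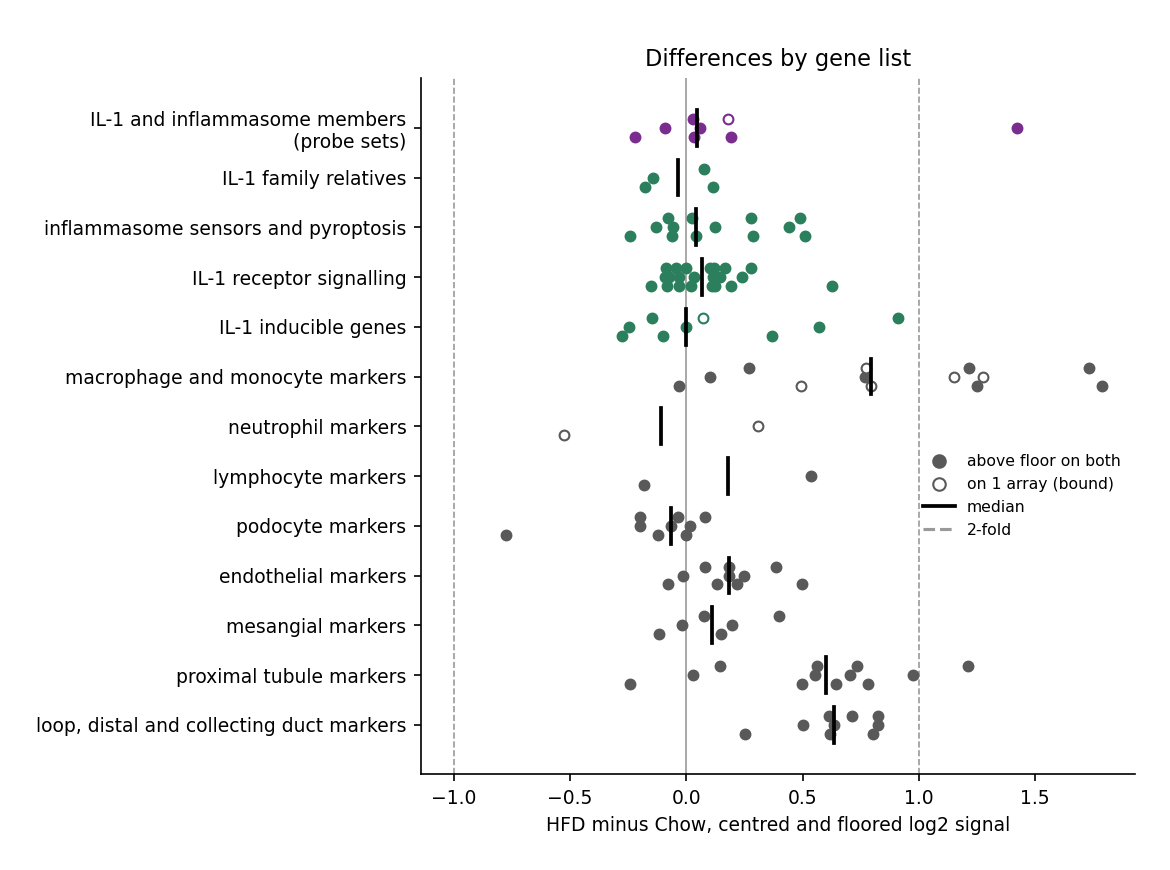
Difference between the arrays (HFD minus Chow, centred and floored log2 signal) for the 8 member probe sets and for each gene of the pathway lists (green) and cell type lists (grey) above the floor, open where a gene was above it on 1 array only, with the list median as a bar and 2-fold as dashed lines. Il1b at 1.42 lies toward the upper end of the macrophage and monocyte markers, whose median is 0.79 and whose highest value is 1.79. None of the 48 pathway genes crosses a dashed line.

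The labelled tissue was checked against markers of glomerular cells. All 9 podocyte, 10 endothelial and 6 mesangial markers measured were above the floor, with signals up to 16261, and none differed by 2-fold. Their medians were -0.064, 0.18 and 0.11 log2 units. By any amount, 2 podocyte markers were higher in HFD and 7 lower (0 higher without centring). For endothelial markers these counts were 8 and 2 (7 higher without centring), and for mesangial markers 4 and 2 (3 higher without centring). Of all genes above the floor, 62.2% were higher, or 46.1% without centring. Dach1 (-0.78) and Cd2ap (-0.20) led the podocyte list, Plvap (0.50) and Cdh5 (0.39) the endothelial list, and Mcam (0.40) and Agtr1a (0.20) the mesangial list. All 12 proximal tubule markers and 9 of the 11 loop, distal and collecting duct markers were above the floor too, with signals up to 5000. The check thus shows glomerular RNA, with tubule marker transcripts beside it on both arrays. The log2 signals of both arrays correlated with r = 0.987 over the 21617 probe sets above the floor on both, which are not independent replicates.

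Processing moved the small differences and left Il1b past 2-fold in most settings. Il1b ran from 1.26 to 1.42 log2 units over the 7 alternatives in which it was above the floor. Some of these could not move it. It was above the reported floor on both arrays, so a lower floor or none left it unchanged. Leaving out shared probe sets did not touch it either, because its probe set is not of that kind. Its Chow and HFD signals both fell under a floor set at the 70th percentile. Of the 8 member probe sets above the floor, 6 were higher by any amount as reported, against 56.5% of all probe sets. That count was 3 without centring, when 41.9% of all probe sets were higher.

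**Figure D4:**
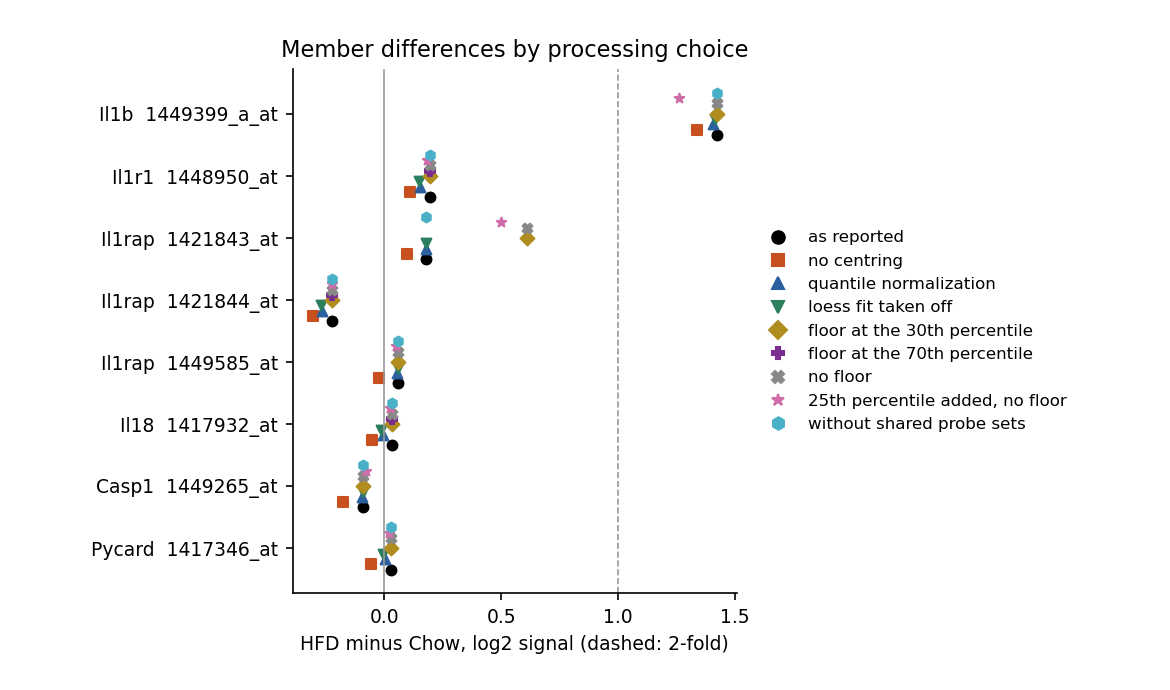
Difference (HFD minus Chow, log2 signal) of the 8 member probe sets above the floor, as reported and under 8 other processing choices, each with its own symbol. The Il1b points stay between 1.26 and 1.42, right of the dashed 2-fold line. Those with a lower floor, with no floor alone and without shared probe sets could not differ from the reported one. Points of Il18, Pycard and Il1rap 1449585_at fall on both sides of 0.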

How the data were processed

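Total RNA was purified on Qiagen columns and labelled with biotin after two-cycle amplification, per the labels' protocols. The authors deposited 1 table of linear probe set intensities, a column per array. GeneSpring 7.3.1 served their comparison, per the series design text. Probe summarisation, scaling between arrays and detection calls are not given in the sources here. The number of arrays limits the precision.

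For this work, 64 control probe sets were dropped. Log2 values of each array were centred on their median, which added 0.083 to every difference. Values under each array's 50th percentile were raised to it. A value above that floor on 1 array only gives a bound. Gene names are those of the 2016 platform annotation (34945 probe sets with 1 gene, 932 with several, 9160 unnamed here), and all 9 members matched RefSeq by Entrez identifier. A list gene was read by its brightest probe set. With 1 array per diet, calls follow a size rule of 2-fold. Named genes were all members, up to 5 largest differences per pathway list, 2 per cell type list, and the 3 genes nearest in signal to a member at least 1.5-fold different. Mrc1 and Ccr2 were added as the brightest and the lowest difference of the macrophage and monocyte list. Ninj1, Irak1, Vcam1 and Cxcl1 are given with their other probe sets. The members and lists were chosen with earlier results of these data known. The centring, floor and 2-fold steps were tested on simulated data, with differences placed only in probe sets above the floor on both arrays. The gene lists, like-signal ranges, nearest genes and motif search were not tested so. Python 3.11.15, pandas 2.3.3, numpy 2.4.6 and statsmodels 0.14.6 were used.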

Additional observations from a re-analysis of the deposited data

How the results depend on the processing

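The finding that Il1b was the 1 member probe set at least 2-fold higher held with no centring, quantile normalization, a loess fit, a 30th percentile floor, the 25th percentile added, without shared probe sets (suffix _s_at or _x_at) and at 1.5-fold. No member probe set carries such a suffix, so leaving out shared probe sets could not change the member count. With the floor at the 70th percentile, and with a 3-fold threshold, 0 member probe sets were higher. With no floor, 5 were higher and 2 lower, all but Il1b under the reported floor. Over all probe sets, 144 were higher and 69 lower as reported. These counts were 735 and 571 with the 30th percentile floor, 42 and 11 with the 70th, 4857 and 4537 with no floor, 1117 and 856 with the 25th percentile added, 857 and 605 at 1.5-fold, and 21 and 7 at 3-fold. Dim probe sets differ more by scatter: without a floor, 40.9% of the 21616 probe sets under it on both arrays differed by at least 2-fold. The median of interleukin-1 inducible genes was 0.47 with no floor (26 genes), against 0.00024 (9 genes). The other pathway medians ran from -0.16 to 0.20 over the alternatives. No paired analysis was possible because each diet has 1 array. No value of 1 array can show variation between mice, and a difference inside the like-signal range cannot be told from scatter.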
